A study of Homo sapiens with 24 samples.

Results

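Alpha- and beta-tubulin mRNAs were followed through total and polysome-associated RNA of PANC-1, an established human cell line derived from a pancreatic ductal tumour. The 10 genes were chosen by their symbols, with the total, polysome and polysome-to-total values of these libraries in view and with no threshold on any of them. They are the beta-tubulins TUBB, TUBB2A, TUBB2B, TUBB3, TUBB4B and TUBB6 and the alpha-tubulins TUBA1A, TUBA1B, TUBA1C and TUBA4A. They are 10 of the 54583 genes in the count table, and all 10 were among the 12058 genes that had at least 1 read in every library and were tested. Because the genes were proposed with these values known, the p-values, from fits across all tested genes, size each change against the replicate spread and lend no support to the choice of the genes.

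Alpha- and beta-tubulin form the dimers from which microtubules are built, the filaments of the mitotic spindle, of cilia and of intracellular transport. Cells adjust tubulin synthesis through the mRNA. When unpolymerized dimers accumulate, the factor TTC5 recognizes the first residues of a nascent tubulin chain as it leaves the ribosome, SCAPER links TTC5 to the CCR4-NOT deadenylase through its subunit CNOT11, and the mRNA is degraded while it is being translated. Tubulin mRNA on polysomes is thus the population on which this control acts.

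Plates of cells received DMSO, 40 µM CID661578 or 5 µM cercosporamide for 6 h. Both compounds target the kinase MNK2, which binds the translation initiation factor eIF4G, but the study reports different actions. CID661578 left MNK2 kinase activity unchanged in vitro and reduced the binding of MNK2 to eIF4G in cells. Cercosporamide inhibited the kinase activity of MNK2, partly that of MNK1 and JAK3, and lowered that of many other kinases. Each treatment had 4 replicates, and each of the 12 plates gave a library of total cytosolic RNA and a library of RNA bound by more than 3 ribosomes, 24 libraries in all from 1 cell line. The labels name RPMI as the culture medium and the study's methods DMEM. The polysome library of cercosporamide replicate 4 held 1592459 counted reads and the other 23 libraries 9268041 to 12184749. The duct keratins KRT8, KRT18 and KRT19 had at least 6149 reads in every library, SOX9 and KRT7 as few as 22 and 5, and markers of leukocytes, endothelium, islets and acini summed to at most 5 reads per library. Levels are given as CPM, counts scaled to library size and normalized by the trimmed mean of M values, which set each mRNA against the rest of its library, so that a loss of all mRNA from a fraction cannot be seen.

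The start of each coding sequence is shown because it encodes the residues that TTC5 reads. The sequences come from the canonical GENCODE v44 transcripts on GRCh38 and run 5′ to 3′ from the start codon over 18 bases, with the first 4 codons in capitals.
TUBB: ATGAGGGAAATCgtgcac
TUBB2A: ATGCGCGAGATCgtgcac
TUBB2B: ATGCGTGAGATCgtgcac
TUBB3: ATGAGGGAGATCgtgcac
TUBB4B: ATGAGGGAAATCgtgcac
TUBB6: ATGAGGGAGATCgtgcac
TUBA1A: ATGCGTGAGTGCatctcc
TUBA1B: ATGCGTGAGTGCatctcc
TUBA1C: ATGCGTGAGTGCatctcc
TUBA4A: ATGCGTGAATGCatctca
The capitals of all 6 beta-tubulins encode the same 4 residues through different synonymous codons, and those of the 4 alpha-tubulins encode another shared set. TUBB and TUBB4B, and likewise TUBB3 and TUBB6, were identical over the 18 bases, as were the 3 TUBA1 genes. TUBB3 and TUBB6 differed in polysome level relative to total RNA in DMSO, with log2 changes of 0.92 and 0.10 (SE 0.17 for each). The other identical genes lay closer together: TUBB and TUBB4B at 0.74 and 0.57 (SE 0.16 and 0.18). TUBA1A, TUBA1B and TUBA1C, which share reads, were at -0.17, -0.23 and -0.03 (SE 0.16 for each). A link between the start sequence and polysome level was not tested.

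The genes lie on several chromosomes of GRCh38. TUBB is at chr6:30717435-30725538 on the plus strand, and TUBB2A and TUBB2B lie near each other on the minus strand at chr6:3153497-3157544 and chr6:3223324-3231730. TUBB3 is at chr16:89921392-89938761, TUBB4B at chr9:137241287-137243707 and TUBB6 at chr18:12307669-12344320, all on the plus strand. The TUBA1 genes form a cluster, with TUBA1B at chr12:49127782-49131397 and TUBA1A at chr12:49184686-49189080 on the minus strand and TUBA1C at chr12:49188736-49274600 on the plus strand, where its annotated span overlaps that of TUBA1A. TUBA4A is at chr2:219249710-219277902 on the minus strand. Every canonical transcript has 4 exons, and the proteins have 444 to 451 residues.

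Near-identical copies limit how far reads can be assigned within the family, because the authors' counting took a read that aligned to several genes at each of them. The coding sequences of TUBB2A and TUBB2B were 98.1% identical, and 59.5% of the 50-base words of the TUBB2A transcript also occurred in TUBB2B. TUBA1A and TUBA1B were 97.3% identical in coding sequence, and 50.5%, 56.6% and 26.7% of the words of TUBA1A, TUBA1B and TUBA1C occurred in another of the 10 genes. No such word of TUBB or TUBA4A occurred in another of them, and TUBB6, TUBB4B and TUBB3 shared 1.09%, 6.21% and 8.99%. Sharing with any annotated gene was wider: 32.7% for TUBB, mostly with TUBBP1 and another annotated gene, 34.5% for TUBA4A, mostly with its neighbour STK16 (28.9%), and 92.8% for TUBB3, mostly with another annotated gene. The counts of these 3 genes may thus have gained or lost reads through such stretches. How these reads were counted with the RefSeq models was not examined. The paired genes TUBB2A and TUBB2B, and the TUBA1 genes, are therefore not independent measurements. Pseudogene copies drew few reads: in DMSO total RNA the count of TUBBP1 was 1.64% of that of TUBB, and the count of TUBAP2 was 5.42% of that of TUBA1B.

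In DMSO total RNA the levels per kilobase of canonical transcript spanned more than 2 orders of magnitude. TUBB, the main beta-tubulin of dividing cells, was highest at 3004 ± 349 CPM per kb (SD, n = 4), followed by TUBA1B at 2441 ± 273, and the ranges of the 2 genes overlapped. TUBB alone held 39.4% ± 1.43 of the summed level of the 10 genes (SD, n = 4). TUBA1A at 725 ± 90.1 and TUBA1C at 643 ± 75.1 CPM per kb overlapped in range. TUBB4B, a broadly expressed isotype, followed at 486 ± 87.6, in a range that overlapped that of TUBA1C. TUBB6 at 125 ± 42.7 and TUBB3 at 111 ± 22.5, the isotype best known from neurons, again overlapped. TUBB2A and TUBB2B stood at 54.5 ± 16.1 and 31.9 ± 10.2, with overlapping ranges, and TUBA4A was lowest at 8.52 ± 1.28 CPM per kb, with 153 to 232 reads per library. Together the 10 genes took 1.54% ± 0.253 of the counted reads in DMSO total RNA and 2.4% ± 0.596 in DMSO polysomes (SD, n = 4). The shares were 1.23% ± 0.336 and 1.91% ± 0.272 with CID661578 and 1.34% ± 0.131 and 2.39% ± 0.214 with cercosporamide.

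**Figure D1:**
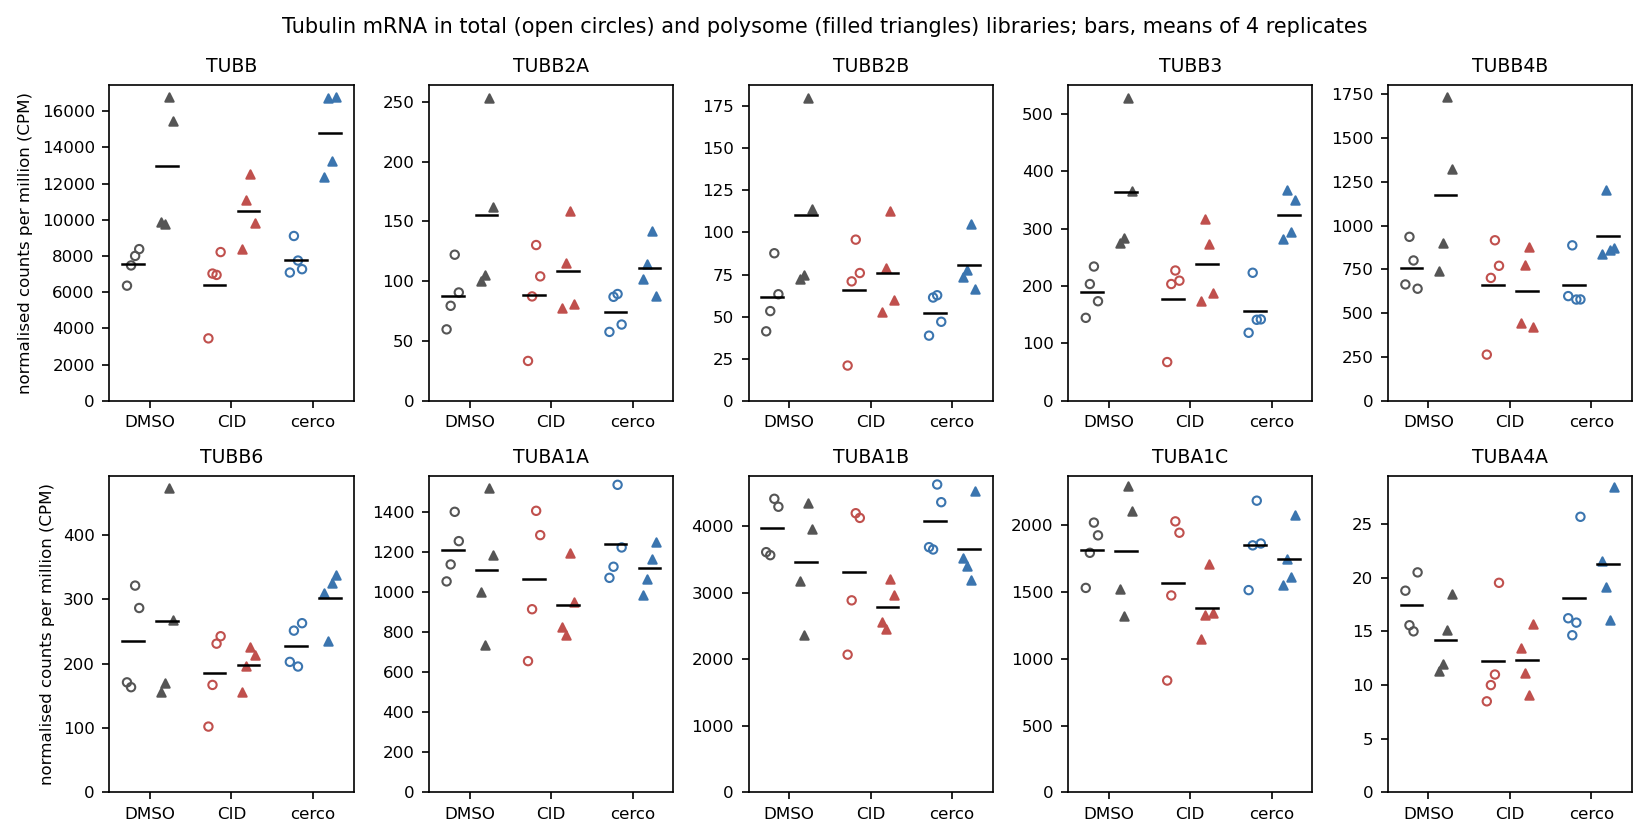
CPM of each tubulin mRNA (vertical axes, linear from 0) in total RNA (open circles) and polysome RNA (filled triangles) with DMSO, CID661578 (CID) and cercosporamide (cerco), 1 mark per library and bars for means of 4. The polysome marks of TUBB lie above its total marks within each treatment, those of TUBA1B do not, and the total library of CID661578 replicate 1 is the lowest open circle in all 10 panels.

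The first comparison asked how far each tubulin mRNA was found on polysomes relative to total RNA without compound. Of the 6 beta-tubulins, 5 were higher in DMSO polysomes than in total RNA, by 1.48- to 1.89-fold, while no alpha-tubulin passed the test in either direction. A call in this comparison required a change above 1.2-fold with an adjusted p below 0.15 (quasi-likelihood test of edgeR). Of all tested genes, 58.3% met this in DMSO, 27.7% as higher and 30.6% as lower on polysomes. A call was thus common, and the median change over all genes was -0.02 on the log2 scale.

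TUBB stood at 6362, 7477, 8003 and 8380 CPM in total RNA of DMSO replicates 1 to 4 and at 9893, 9793, 16783 and 15429 CPM in the polysome libraries of the same plates. The groups did not overlap, and the polysome level was 1.55, 1.31, 2.1 and 1.84 times the total level. The log2 change was 0.74 (SE 0.16, adjusted p = 0.00033 by edgeR).
TUBB3 had the largest polysome excess of the 10 genes, with 145, 203, 234 and 173 CPM in total RNA and 275, 284, 528 and 365 CPM on polysomes. The log2 change was 0.92 (SE 0.17, adjusted p = 2.7e-05 by edgeR), which lay at percentile 88.2 of all tested genes.
TUBB2A and TUBB2B changed by 0.76 and 0.80 on the log2 scale (SE 0.17 for each, adjusted p = 0.00037 and 0.00027 by edgeR), and both were higher on polysomes in 4 of 4 plates. Since they share many of their reads, they are not 2 separate observations.

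TUBB4B was less uniform. Its total levels were 664, 936, 801 and 640 CPM and its polysome levels 739, 900, 1731 and 1325 CPM, so that plates 3 and 4 carried the excess and plates 1 and 2 showed little or none. The log2 change was 0.57 (SE 0.18, adjusted p = 0.0108 by edgeR), and without replicate 4 it was 0.40 and no longer passed (adjusted p = 0.152). TUBB6, of the beta-tubulins the least like TUBB in coding sequence (81.7% identity), had 171, 164, 321 and 287 CPM in total RNA and 157, 170, 473 and 268 CPM on polysomes. Plates 3 and 4 were high in both fractions, and its log2 change of 0.10 (SE 0.17, adjusted p = 0.66 by edgeR) did not pass.

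Among the alpha-tubulins, TUBA1B stood at 3611, 3566, 4413 and 4293 CPM in total RNA and at 3181, 2370, 4357 and 3952 CPM on polysomes. The polysome level was 0.665 to 0.987 times the total level over the 4 plates, and the groups overlapped. Its log2 change of -0.23 (SE 0.16, adjusted p = 0.258 by edgeR) did not pass. The estimates of TUBA1A, TUBA1C and TUBA4A were -0.17, -0.03 and -0.31 (SE 0.16, 0.16 and 0.22), and none passed. The 95% interval of TUBA1C, from -0.35 to 0.28, lay wholly below that of TUBB, from 0.42 to 1.06. It overlapped that of TUBB4B, from 0.21 to 0.92. The interval of TUBB6, from -0.23 to 0.42, overlapped those of all the alpha-tubulins.

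**Figure D2:**
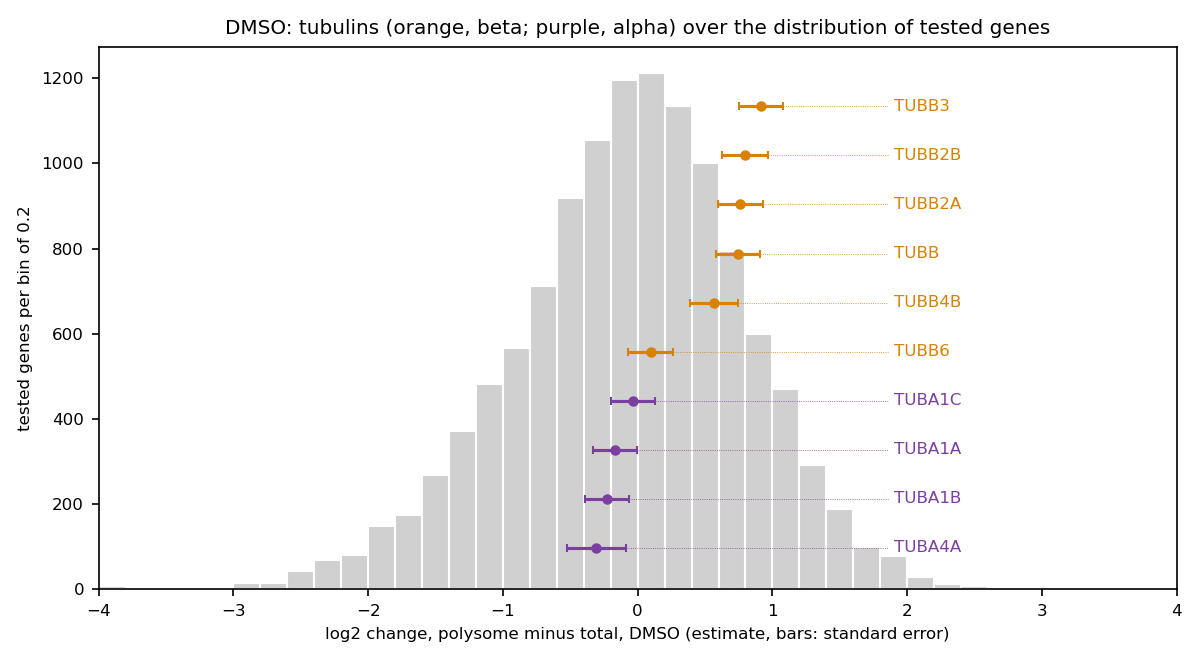
Polysome minus total log2 change in DMSO of the 10 tubulin genes (points with standard errors, at arbitrary heights) over the number of tested genes in each bin of 0.2 (grey bars). The 5 called beta-tubulins sit between 0.57 and 0.92, to the right of the centre of the distribution, and TUBB6 and the 4 alpha-tubulins between -0.31 and 0.10.

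The sums of the beta- and alpha-tubulins differed in the same direction with both compounds, whereas single genes did not always. The summed polysome CPM of the beta-tubulins divided by their summed total CPM was 1.27 to 2.08 over the DMSO plates, 1.12 to 2.36 with CID661578 and 1.70 to 2.21 with cercosporamide. The same ratio for the alpha-tubulins was 0.681 to 1.04, 0.714 to 1.27 and 0.715 to 1.06. The ranges met only with CID661578, and within a plate the beta ratio exceeded the alpha ratio in 12 of 12 plates. These sums follow TUBB and TUBA1B most closely. Gene by gene, every beta-tubulin lay above every alpha-tubulin in 2 of 4 DMSO plates, and in the other plates TUBB6 fell among the alpha-tubulins. With cercosporamide 6, 4, 6 and 6 of the 6 beta-tubulins lay above every alpha-tubulin in plates 1 to 4, and with CID661578 5, 4, 6 and 3 did. In plate 4 of CID661578 the median log2 ratio of the beta-tubulins was -0.26, and TUBB4B at -0.88 lay below every alpha-tubulin. Alpha- and beta-tubulin enter the dimer in equal number. The summed CPM of the beta-tubulins was 1.2 to 1.37 times that of the alpha-tubulins in DMSO total RNA and 1.97 to 2.55 times in DMSO polysomes. This ratio differed between the fractions without overlap. The sums are not divided by transcript length, and TUBB (2515 bases) is longer than TUBA1B (1627 bases). Reads shared among the TUBA1 genes may also count more than once in the alpha sum. Within a fraction the ratio is therefore not one of mRNA numbers and cannot be set against the equal numbers in the dimer.

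The canonical transcripts of TUBB and TUBA1A have similar GC contents of 51.1% and 51.3%. The other beta-tubulins lie higher, from 56.1% for TUBB2B to 62.2% for TUBB3, and the alpha-tubulins range from 50.2% for TUBA1C to 55.1% for TUBA4A. GC content thus differs between most of the beta-tubulins and the alpha-tubulins. After the trend with GC content was removed from each library, the log2 changes in DMSO were 0.75 for TUBB, 0.55 for TUBB2A, 0.66 for TUBB2B, 0.63 for TUBB3 and 0.35 for TUBB4B, all still called, and TUBA4A at -0.42 was called lower (adjusted p = 0.0907). The pseudogene TUBBP1, which shares sequence with TUBB, was called higher by the same 0.74.

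**Figure D3:**
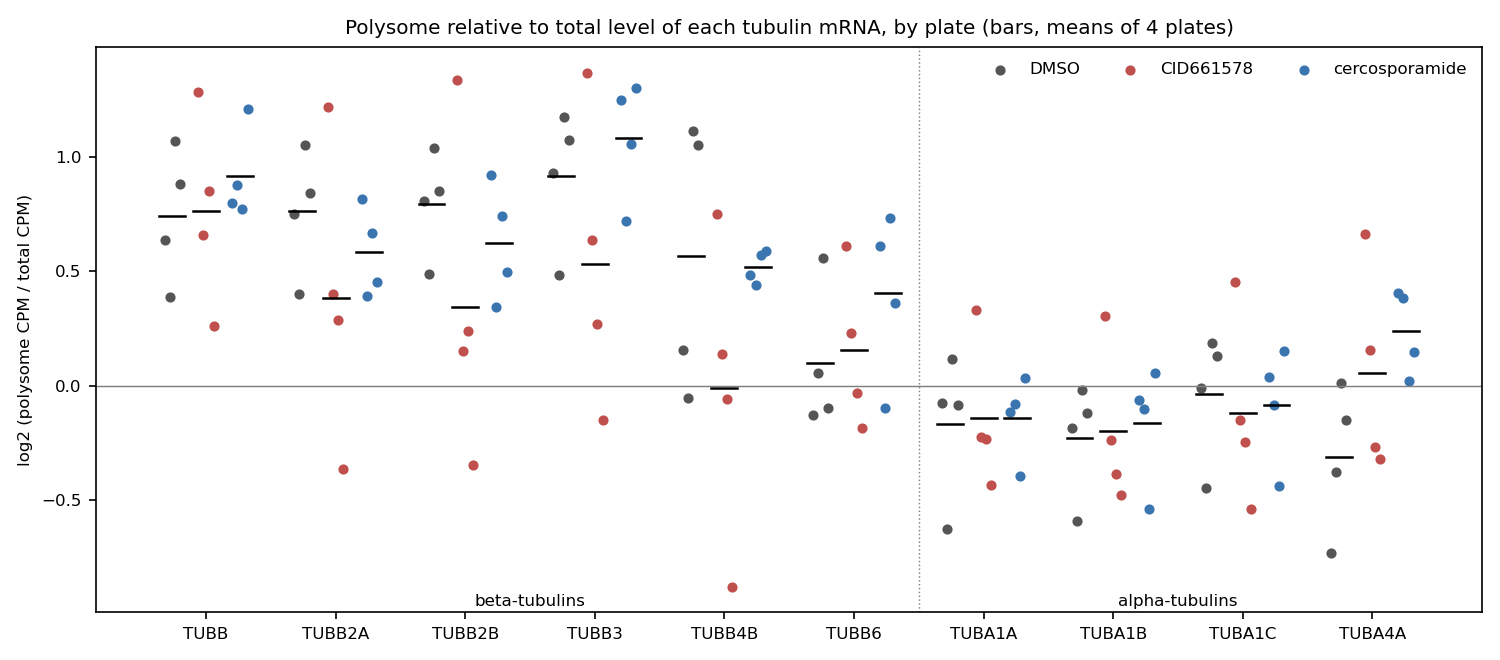
Log2 of polysome CPM over total CPM for each tubulin gene, with 1 point per plate coloured by treatment and bars for the mean of 4 plates. Points of TUBB and TUBB3 lie mostly above 0.4 and those of the alpha-tubulins mostly below 0.2, and the highest point of most genes belongs to replicate 1 of CID661578, whose total library is low.

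The next comparison asked whether either compound changed tubulin mRNA in total RNA, the readout of mRNA abundance. No tubulin mRNA passed the test with CID661578 or with cercosporamide, against 0.448% of all tested genes with CID661578 (0.315% higher, 0.133% lower) and 0.381% with cercosporamide (0.29% higher, 0.0912% lower). A call within a fraction required an adjusted p below 0.15. At an unadjusted p below 0.05 there was 1 of 10 with CID661578 and 0 of 10 with cercosporamide, and DESeq2 called 0 of 10 with either. With CID661578 all 10 estimates were below 0, with a median log2 change of -0.26 against -0.01 over all genes. With cercosporamide the median was 0.02, and 6 estimates lay above 0.

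The estimates with CID661578 turned on 1 library. TUBB stood at 3452 CPM in the total RNA of replicate 1 and at 7030, 6956 and 8217 CPM in the other replicates, beside 6362 to 8380 CPM in DMSO. TUBA1B was likewise at 2070 CPM in replicate 1 and at 2887, 4196 and 4126 CPM in the others. Each of the 10 mRNAs was lower in this library than in any other of the 12 total libraries, TUBA4A by little. Without it, the log2 change of TUBB went from -0.28 (SE 0.20, 95% interval -0.68 to 0.11) to -0.09, and the estimates of TUBB2A, TUBB2B, TUBB3 and TUBB4B lay above 0, at 0.17, 0.28, 0.08 and 0.04. None passed either way.
TUBA4A had the largest estimate, with 18.8, 15.6, 15.0 and 20.5 CPM in DMSO and 8.48, 9.99, 11 and 19.5 CPM with CID661578. It was lower in 4 of 4 replicates, by little in the fourth, and its log2 change of -0.57 (SE 0.24, adjusted p = 0.635 by edgeR) did not pass. With cercosporamide the interval for TUBB was -0.34 to 0.45 and that for TUBA1B -0.32 to 0.40. These intervals give the precision of the estimates and are not limits of detection. Changes larger than these could also have gone uncalled. Between the compounds, which were given at different doses, no tubulin mRNA passed in total RNA either, against 0.572% of all genes (0.249% higher and 0.323% lower with cercosporamide).

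In polysome-associated RNA, 3 beta-tubulin mRNAs were lower with CID661578 than with DMSO, TUBB4B at 0.53-fold of the DMSO level, TUBB3 at 0.654-fold and TUBB2B at 0.704-fold, and none was higher. Of all tested genes 10.1% were called, 6.16% as higher and 3.96% as lower. All 10 estimates were below 0, with a median of -0.35 against -0.01 over all genes. TUBB2A, whose reads overlap those of TUBB2B, changed by -0.50 (SE 0.19, adjusted p = 0.166 by edgeR) and fell just outside the threshold, whereas TUBB2B at -0.51 (SE 0.19, adjusted p = 0.145) fell just inside it.

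TUBB4B stood at 739, 900, 1731 and 1325 CPM on DMSO polysomes and at 444, 773, 880 and 419 CPM with CID661578. It was lower in 4 of 4 replicates, most in replicates 3 and 4, where its DMSO level was highest, and the groups overlapped. The log2 change was -0.92 (SE 0.22, adjusted p = 0.0276 by edgeR), at percentile 1.49 of all tested genes.
TUBB3 stood at 275, 284, 528 and 365 CPM with DMSO and at 174, 316, 273 and 188 CPM with CID661578. Replicate 2 went the other way, and the log2 change was -0.61 (SE 0.20, adjusted p = 0.097 by edgeR).
TUBB, at 8403, 11103, 12543 and 9838 CPM with CID661578, overlapped its DMSO values and changed by -0.29 (SE 0.20, adjusted p = 0.452). The alpha-tubulins changed by -0.22 to -0.37, and none passed.

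These 3 calls depended on the analysis. Without the replicate term none passed (adjusted p = 0.302, 0.449 and 0.588 for TUBB4B, TUBB3 and TUBB2B by edgeR), although the log2 changes of -0.90, -0.61 and -0.53 were close to those with it. After removal of the GC trend the log2 changes were -0.63, -0.31 and -0.30 for TUBB4B, TUBB3 and TUBB2B, and none passed (adjusted p = 0.172, 0.563 and 0.493). Without replicate 4 none passed, and without replicate 1 or replicate 3 only TUBB4B did. Without replicate 2, and in DESeq2, TUBB2A was called as well (log2 change -0.70 and -0.51).

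With cercosporamide the polysome levels of the tubulin mRNAs changed by a median of 0.02 on the log2 scale, with 5 estimates on each side of 0, while 32.2% of all tested genes were called, 18.3% as higher and 13.8% as lower. TUBA4A alone passed, as higher. Its polysome levels were 11.3, 12.0, 15.1 and 18.5 CPM with DMSO and 21.5, 19.1, 16 and 28.5 CPM with cercosporamide. It was higher in 4 of 4 replicates, with overlapping groups, and the value of 28.5 CPM rests on 43 reads in the shallow library. The log2 change was 0.56 (SE 0.21, adjusted p = 0.0635 by edgeR), but without replicate 1, without replicate 2 or without the replicate term it did not pass (adjusted p = 0.258, 0.207 and 0.224, with log2 changes of 0.45, 0.52 and 0.55).
TUBB2A and TUBB2B changed by -0.41 and -0.38 (SE 0.20 and 0.19, adjusted p = 0.155 and 0.18 by edgeR) and did not pass, yet passed as lower with the size factors of DESeq2 (adjusted p = 0.0953 and 0.109). TUBB, at 12335, 16726, 13232 and 16799 CPM with cercosporamide, overlapped its DMSO values, and its log2 change of 0.21 had a 95% interval of -0.18 to 0.61. The 2 compounds share the DMSO libraries, so their changes are not independent of each other.

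**Figure D4:**
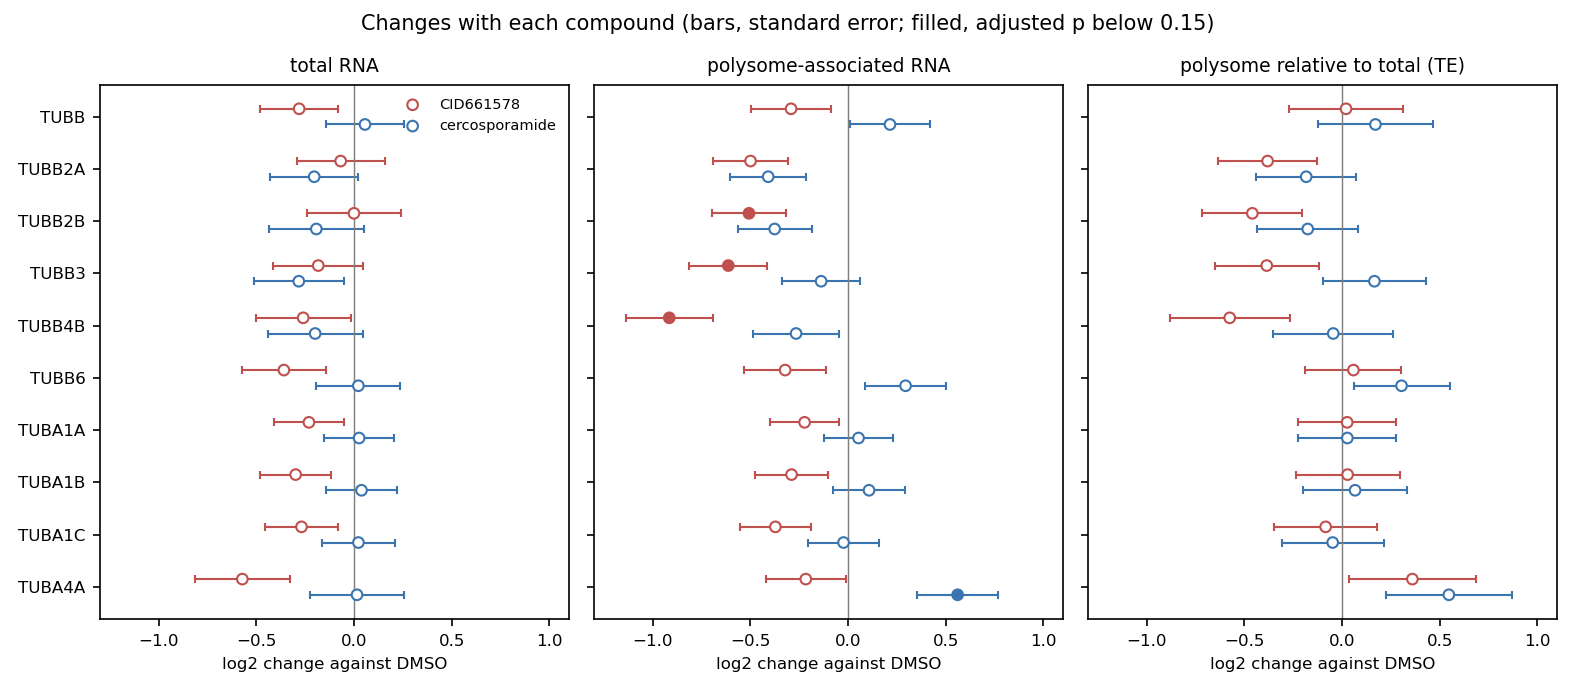
Log2 change against DMSO of each tubulin mRNA in total RNA, polysome RNA and polysome relative to total RNA, with standard errors, for CID661578 and cercosporamide. Filled points, at an adjusted p below 0.15, are TUBB4B, TUBB3 and TUBB2B with CID661578 and TUBA4A with cercosporamide, all in polysome RNA.

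The last comparison asked whether polysome association changed beyond the change in total RNA, which is the change in translation efficiency (TE) and was fitted with a term for each plate. No tubulin mRNA was called with CID661578, with cercosporamide or between them, and 0 of 10 reached an unadjusted p below 0.05 in any of the 3. DESeq2 called none either. Of all tested genes 0.207% were called with CID661578 (0.00829% higher, 0.199% lower), 28.4% with cercosporamide (15.8% higher, 12.6% lower) and 15.5% between the compounds (7.57% higher, 7.93% lower with cercosporamide). The study used another method, anota2seq, with the same limits on adjusted p and fold. It reports more translationally regulated mRNAs with CID661578 than were called here. The small share here is therefore no measure of how far CID661578 altered translation. The TE change of TUBB was 0.02 with CID661578 (95% interval -0.55 to 0.59) and 0.17 with cercosporamide (-0.40 to 0.74), and that of TUBA1B was 0.03 (-0.49 to 0.55) and 0.07 (-0.46 to 0.59).

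The polysome-to-total ratio of TUBB4B shows the spread behind these intervals. It was 1.11, 0.962, 2.16 and 2.07 in DMSO plates, 1.68, 1.1, 0.961 and 0.544 with CID661578 and 1.4, 1.36, 1.48 and 1.5 with cercosporamide. The cercosporamide plates lay close together, and the others did not. Its TE change with CID661578 was -0.58 (SE 0.31, adjusted p = 0.599 by edgeR), and -0.91 without the low total library (adjusted p = 0.179).
TUBA4A had ratios of 0.603, 0.770, 1.01 and 0.902 with DMSO and 1.33, 1.30, 1.01 and 1.11 with cercosporamide, higher in 4 of 4 replicates. These groups did not overlap, but the lowest cercosporamide and the highest DMSO ratio both round to 1.01. Its TE change of 0.55 (SE 0.32, adjusted p = 0.268 by edgeR) did not pass. After the GC trend was removed, TUBA4A at 0.83 and TUBB6 at 0.60 were called higher with cercosporamide (adjusted p = 0.0623 for each). Between the compounds TUBB3 differed by 0.55 (adjusted p = 0.229), and without the low total library TUBB3 at 0.80 and TUBB4B at 0.86 were called higher with cercosporamide than with CID661578 (adjusted p = 0.115 and 0.128 by edgeR).

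Of 14 further alpha-, beta-, gamma-, delta- and epsilon-tubulin symbols, 7 could be tested. On polysomes with CID661578 3 of these 7 were called lower and 1 higher, beside 3.96% lower and 6.16% higher of all tested genes. Their median log2 change was -0.41. TUBG1, the gamma-tubulin that nucleates microtubules, was at 289.8 ± 53.7 CPM in DMSO total RNA and passed no test. TUBE1, the epsilon-tubulin of centrioles, rose on polysomes with both compounds, by 1.24 with CID661578 (SE 0.23, adjusted p = 0.00386 by edgeR) and by 0.57 with cercosporamide (SE 0.23, adjusted p = 0.0928). Its polysome level was 27.6 ± 13.3 CPM with DMSO and 43.6 ± 29.3 with cercosporamide. In total RNA it was at 41.4 ± 18.9 CPM with DMSO and 61.4 ± 20.7 with CID661578. None of the 7 was called in TE, beside 0.207% of all tested genes with CID661578 and 28.4% with cercosporamide. TUBB8 and TUBB8B, with at most 58 and 57 reads per library and near-identical to other genes, fell on polysomes with CID661578 by 1.67 and 1.59 (adjusted p = 0.0193 and 0.0216 by edgeR). Their levels were nearly the same, at 4.02 and 4.10 CPM on DMSO polysomes and 1.36 and 1.45 CPM with CID661578. They may therefore not be 2 separate observations. TUBG2 fell there by 0.59 (adjusted p = 0.116).

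The factors of tubulin autoregulation were all among the tested genes, though CNOT6L had as few as 1 read in a total library with CID661578. In total RNA 0 of 13 were called with either compound, beside 0.448% of all tested genes with CID661578 and 0.381% with cercosporamide. At such shares a count of 0 says little about these genes. TTC5, which reads the nascent chain, was at 25.5 ± 3.82 CPM in DMSO total RNA and 26.1 ± 4.62 on polysomes, and SCAPER was at 1.53 ± 0.863 CPM in total RNA on 10 to 32 reads. Neither passed in any comparison, and CNOT11 passed only as higher in DMSO polysomes than in total RNA (0.68, SE 0.26, adjusted p = 0.0325 by edgeR). In the TE comparison with cercosporamide the deadenylase CNOT6L and the ubiquitin ligase CNOT4 rose by 1.72 and 1.2 (adjusted p = 0.0816 and 0.106), and the CCR4-NOT subunit CNOT9 fell by 0.53 (adjusted p = 0.124). These 2 of 13 higher and 1 of 13 lower stand beside 15.8% and 12.6% of all tested genes, and CNOT6L had as few as 3 reads in a total library with cercosporamide. No gene of this list was called in TE with CID661578, beside 0.207% of all tested genes.

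Of 13 tubulin folding genes, 8 were lower on DMSO polysomes than in total RNA and 2 higher, beside 30.6% lower and 27.7% higher of all tested genes. TBCA, a cofactor that binds beta-tubulin, differed by -1.45 (adjusted p = 1.3e-08 by edgeR), the prefoldin subunit PFDN4 by -1.22, and TBCD, another beta-tubulin cofactor, by 1.54. With cercosporamide the TE of TBCA fell by 0.77 and that of TBCB, the alpha-tubulin cofactor, by 0.73 (adjusted p = 0.0258 and 0.0357), while TBCE rose by 1.05 (adjusted p = 0.0365), so that 2 of 13 were lower and 1 higher beside 12.6% and 15.8% of all tested genes. With CID661578, PFDN2 and VBP1, both prefoldin subunits, rose on polysomes by 0.60 and 0.47 (adjusted p = 0.118 and 0.129) and TBCC fell by 0.47 (adjusted p = 0.149). These 2 of 13 higher and 1 of 13 lower stand beside 6.16% and 3.96% of all tested genes.

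Of 26 genes for tubulin modification 11 could be tested. None was called in TE against DMSO, beside 0.207% of all tested genes with CID661578 and 28.4% with cercosporamide. On polysomes with cercosporamide 4 fell and 0 rose, beside 13.8% lower and 18.3% higher of all tested genes. TTL, the tubulin tyrosine ligase, fell by 0.67 (adjusted p = 0.0332), and SVBP, the partner of the detyrosinating vasohibins, by 1.00 (adjusted p = 0.0473). SVBP had only 5 to 23 reads per polysome library with cercosporamide. Of 27 tested genes for microtubule assembly and disassembly, 11 rose in TE with cercosporamide and 1 fell, against 15.8% and 12.6% of all tested genes, and their median log2 TE change was 0.38. KIF18A, a kinesin that limits microtubule length in the spindle, rose by 1.95 (SE 0.32, adjusted p = 0.00035 by edgeR), MAP9 by 1.49 (adjusted p = 0.0515) and CLIP1, a plus-end protein, by 1.07 (adjusted p = 0.0196), and STMN3 fell by 0.92 (adjusted p = 0.142). KIF18A stood at 9.08 ± 0.292 CPM on DMSO polysomes and 26 ± 9.94 with cercosporamide (SD, n = 4). MAP9 was low, with 12 to 86 reads per total library and 11 to 83 per polysome library with cercosporamide. Calls of the listed genes were not examined under alternative analyses.

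The profile of the 10 genes over the 24 libraries was compared with that of 7885 other genes, after the mean within each fraction was taken out. KIF22, a spindle kinesin, was closest (root mean square difference 0.174 on the log2 scale), followed by CTSH, TPM2, PSMF1 and PDLIM1 (0.187 to 0.198). The mean profile of the 10 genes was -1.09 in the total library of CID661578 replicate 1 and -0.55 to 0.69 in the others. This 1 low library therefore weighs heavily in the ranking. Within the family TUBB2A and TUBB2B were closest to each other (0.0698), then TUBA1A and TUBA1B (0.105), both pairs that share reads. Pairs of 2 beta-tubulins had a median difference of 0.307 over 15 pairs, pairs of 2 alpha-tubulins 0.217 over 6, and mixed pairs 0.353 over 24. TUBA4A, the least abundant, and TUBB2B were the farthest apart, at 0.675.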

How the data were processed

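The gene counts deposited by the authors come from Smart-seq2 libraries of total cytosolic and polysome-associated RNA. After removal of adapters and rRNA reads (BBDuk), the authors used HISAT2 for alignment to hg38 and featureCounts, at default settings and thus without strand, for counting on RefSeq gene models. The counts of 54583 genes were neither normalized nor filtered.

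Genes with a count of 0 in any of the 24 libraries were left out, which kept 12058. After TMM normalization, edgeR 4.0.16 (quasi-likelihood F-test, R 4.3.3) gave p-values, adjusted after Benjamini and Hochberg over all 12058 genes. Fits within a fraction held replicate and treatment. The TE fit held plate, replicate by fraction and compound by fraction, and the DMSO fit held plate and fraction. Calls required an adjusted p below 0.15 and, for TE and DMSO, a change above 1.2-fold. Scripts were tested on simulated data. Standard errors are Wald errors, and 95% intervals follow from them by the normal distribution. The intervals are therefore somewhat narrower than the tests imply. Depth, 1592459 to 12184749 reads, limits precision for low counts, above all for TUBA4A.

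The replicate number joins libraries because the study's methods use it as the batch. As a check, deviations from group means were correlated between treated and DMSO libraries that share a number, and 13 of 16 correlations exceeded 0.1 (range -0.02 to 0.55). No libraries were copies (lowest chi-square per degree of freedom 9.81). All plates held the same line, so p-values measure the spread between plates.

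The 10 genes and all lists were chosen with earlier results of these data known. The text names all 10, TTC5, SCAPER and CNOT11, further tubulin symbols, up to 3 called genes per list and comparison with the largest change, and the 5 genes of closest profile. STMN3, chosen after its value was seen, is named beyond this. Positions, lengths and sequences came from GENCODE v44 on GRCh38, whereas counting used RefSeq models. Alternatives were other normalizations, filters and fits, DESeq2 1.42.0, removal of the GC trend (a GC value for 96.0% of tested genes), and each replicate left out. They were read out for the 10 genes only, so calls of further tubulins and of listed genes were not examined under them.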

Additional observations from a re-analysis of the deposited data

Results flagged for a closer look

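Among 90 sets of 4 replicate values, which were tubulin levels within a fraction and polysome-to-total ratios, 3 sets, all of levels, held 1 value apart from the others by Dixon's criterion on the log2 scale, which chance meets in about 1 of 20 sets. TUBB3 was at 67.6 CPM in total RNA of CID661578 replicate 1 and at 203 to 227 CPM in the other replicates. TUBB4B was at 887.1 CPM in total RNA of cercosporamide replicate 2, beside 578 to 598 CPM in the others, and at 1202 CPM on polysomes of the same plate, beside 835 to 870 CPM. The plate that was high for TUBB4B was high in both fractions, and its ratio of 1.36 was the lowest of the cercosporamide plates.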

How the results depend on the processing

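The count of 5 beta-tubulins called higher on DMSO polysomes was 5 under every alternative run except without replicate 4, where it was 4, and the count called in total RNA was 0 under every alternative run. The calls with compounds on polysomes did not. With CID661578 the count of 3 tubulin mRNAs called lower was 0 after GC removal, 1 at an adjusted p below 0.05, and 0 to 4 with a replicate left out. With cercosporamide the count of 1 called higher was 0 with no filter on low counts and at an adjusted p below 0.05, 2 after GC removal, and 0 to 2 with a replicate left out. The count called lower, 0 in the reported fit, was 2 with DESeq2 size factors, 2 with the filterByExpr filter, 2 with no filter, 1 with the DESeq2 test and 0 to 2 with a replicate left out. In TE with cercosporamide, GC removal gave 2 called higher, and in DMSO it gave 1 called lower. Leaving out the total library of CID661578 replicate 1, an alternative chosen after seeing the data, gave 2 called higher in TE between the compounds. On lengths from the union of all exons TUBB held 44.2% of the summed level in DMSO total RNA, against 39.4%. The cause of these shifts was not tested.

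Without the replicate block the count with CID661578 on polysomes was 0 and that with cercosporamide 0, and no other count of called tubulins moved by more than 1.5 times.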
